A study of Mus musculus with 4 samples.

Results

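The genes described here carry chloride, potassium, sodium and water across the epithelium of the intestinal crypt, together with the peptide hormone uroguanylin that controls this traffic. The list holds 10 genes chosen by name for this role, Cftr, Slc12a2, Kcnq1, Kcne3, Kcnn4, Aqp1, Slc26a3, Slc26a6, Slc9a3 and Guca2b, and all 10 were found among the 53845 rows of the count table by their Ensembl identifier. RNA-seq was performed on total RNA of mouse intestinal crypts loosened with EDTA, from the small intestine and after straining out villi by the study's methods, with 2 wild-type (WT) libraries and 2 libraries from Vil-CREPTKO mice, all on a C57BL/6 background and with no treatment given in the labels. Vil-CREPTKO mice carry floxed alleles of CREPT (gene Rprd1b) and a Cre recombinase under the villin promoter, which is active from gut development onwards in all epithelial cells, so that the deletion was neither inducible nor restricted to crypts, and cells outside the epithelium kept the gene. For its mice in general the study describes both sexes in early adulthood, but the age of each library's donor was not given in the sources used here. The 2 libraries of a group were described as biological replicates, and legends for the RNA-seq give 2 mice per genotype, which with 2 libraries each would be 1 mouse per library.

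When a crypt secretes fluid, chloride enters the cell from the blood side with sodium and potassium and leaves through a channel in the membrane facing the lumen, and water follows the salt. Potassium must leave again through channels on the blood side to keep the driving force for chloride, while the sodium pump removes sodium. Enterocytes nearer the villus do the reverse and take up salt by exchanging sodium for protons and chloride for bicarbonate. The peptides guanylin and uroguanylin are released into the lumen and bind the receptor guanylate cyclase C, whose product cGMP opens the chloride channel CFTR and slows sodium uptake.

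Total counts lay between 47241049 and 49369315, and Rprd1b, the deleted gene, was at 60.5 and 61.6 CPM (counts relative to library size, scaled by TMM) in WT and at 26.3 and 29.0 CPM in Vil-CREPTKO. Vil-CREPTKO replicate 1 stood apart. Its 12 markers of villus enterocytes summed to 32458 CPM, against 18304, 24583 and 19838 CPM in the WT libraries and the other Vil-CREPTKO library, and its mitochondrial genes took 10.2% of the counts, against 6.75% to 7.62% in the others. WT replicate 2 was the library of a female, with Xist at 863 CPM against 0.299 to 0.529 CPM in the other libraries, so that in WT the sex and the library cannot be told apart. The 9 markers of crypts and of epithelium in general summed to 8822 and 8934 CPM in WT. In Vil-CREPTKO they summed to 7770 CPM in replicate 1, the lowest, and to 9607 CPM in replicate 2. They were Epcam, Cdh1, Vil1, Cdx2, Olfm4, Lgr5, Ascl2, Lyz1 and Mki67. Epcam, Cdh1, Vil1 and Cdx2 are not confined to crypts, so this sum does not measure crypt content alone. The 8 markers of stroma and smooth muscle summed to 5.15 and 6.03 CPM in WT and to 17.3 and 2.18 CPM in Vil-CREPTKO, highest in replicate 1. The 5 colon markers summed to between 4.62 and 8.33 CPM, with Car1, Hoxd13 and Hoxd12 at 0 counts in every library.

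Levels were compared between genes per kilobase of the principal transcript. Guca2b stood far above the other members, at 1041 and 1000 CPM per kb in the WT libraries, and Slc26a6 far below, at 0.840 and 0.677 CPM per kb. Between them, the mean level in WT fell in the order Aqp1 (90.3 CPM per kb), Slc9a3 (88.3), Kcne3 (86.7), Slc12a2 (58.5), Slc26a3 (52.6), Kcnq1 (39.1), Kcnn4 (32.9) and Cftr (30.6). Aqp1, Slc9a3 and Kcne3 overlapped in the WT libraries, and so did Kcnn4 and Cftr, so these neighbours did not differ beyond their spread. Slc12a2 lay above Slc26a3 in both WT libraries, and Kcnq1 above Kcnn4. Guca2b exceeded 99.7% and Slc26a6 24.4% of the 17123 genes ranked per kb in WT.

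**Figure D1:**
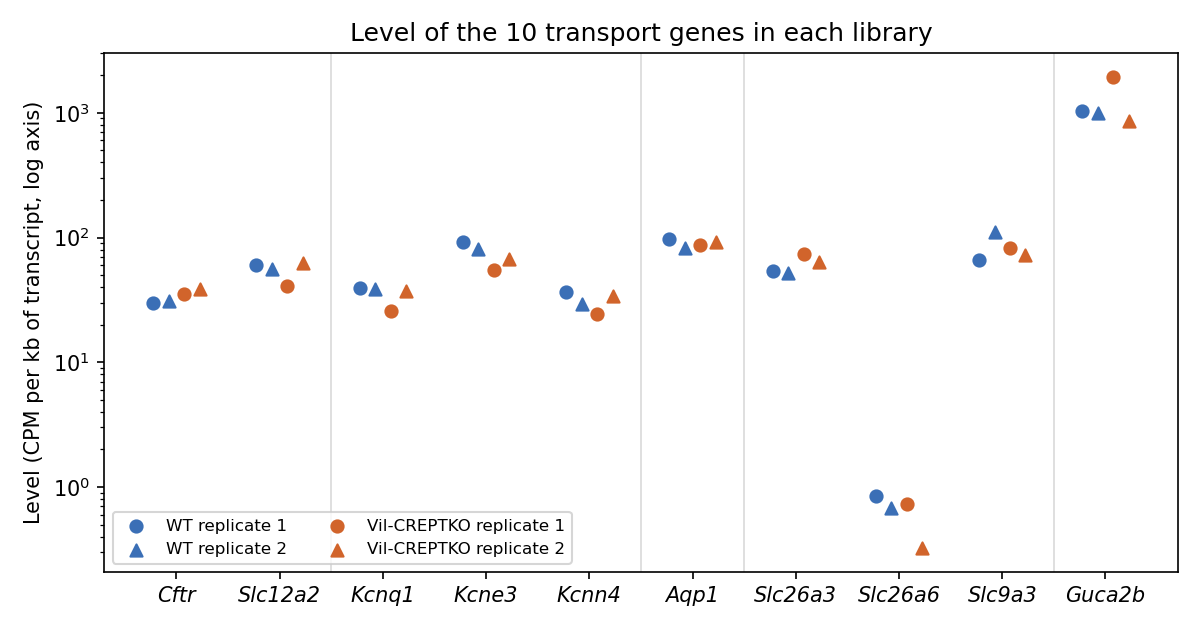
Level of each of the 10 genes in CPM per kb of the principal transcript (y axis, log scale), with blue for WT, orange for Vil-CREPTKO, circles for replicate 1 and triangles for replicate 2. Grey lines part the roles, from left to right chloride exit and entry, potassium channels, the water channel, absorptive exchangers and the hormone. Guca2b lies between 857 and 1950.5 CPM per kb and Slc26a6 below 1 in every library.

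WT and Vil-CREPTKO crypts were then compared to ask whether loss of CREPT in the epithelium was accompanied by a change in the transport genes. By the quasi-likelihood test of edgeR, 0 of the 10 genes reached an adjusted p below 0.05, the threshold used throughout, against 2.71% of the 17504 genes tested. Genes that passed in the whole table were mostly lower in Vil-CREPTKO (2.29% of all genes, against 0.423% higher). With DESeq2 the count of members was 0 as well. An unadjusted p under 0.05 was reached by 2 of the 10, Kcne3 and Slc26a3, against 14.3% of all genes. Without overlap between the groups were 4 of the 10, Cftr, Kcnq1, Kcne3 and Slc26a3, a share close to the 45.1% of all genes. The fitted log2 fold change was negative for 7 members and positive for 3, with a median of -0.17, against -0.0060 over all genes. For 8 of the 10, the 95% interval of the fold change lay within a 2-fold change in either direction, the exceptions being Slc26a6 and Guca2b. In bulk RNA, fewer cells of a type and less RNA per cell cannot be told apart, and this holds for each gene below.

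**Figure D2:**
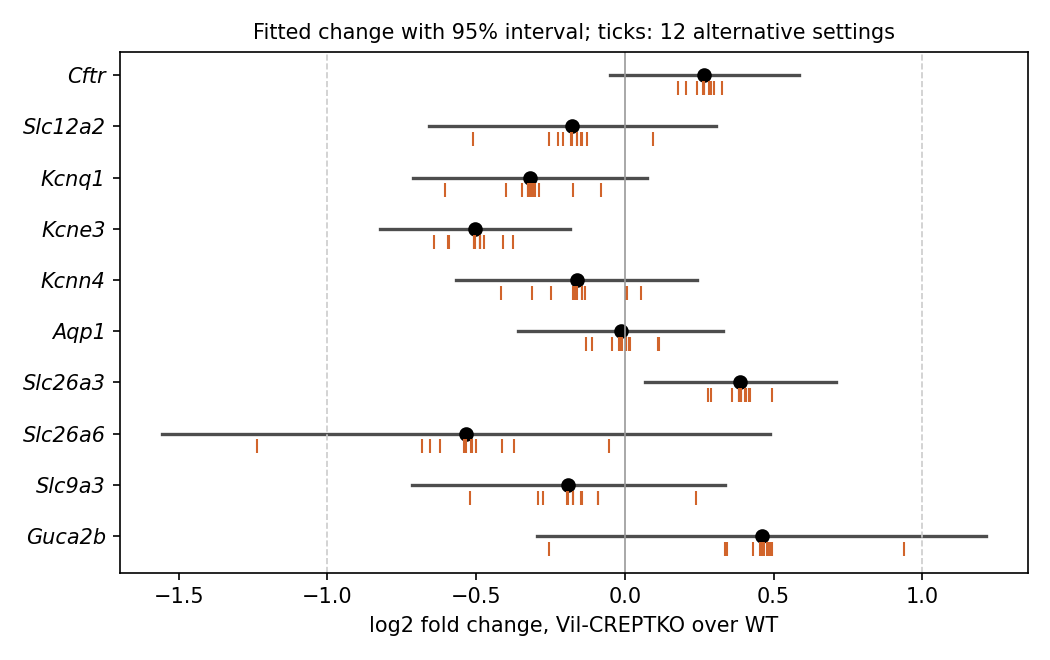
Fitted log2 fold change of Vil-CREPTKO over WT for each gene (black point) with its 95% interval (grey bar), and orange ticks for the 12 alternative settings. Dashed lines mark a 2-fold change. The interval leaves out 0 for Kcne3 (-0.82 to -0.19) and Slc26a3 (0.067 to 0.71), and the ticks of Slc12a2, Kcnn4, Aqp1, Slc9a3 and Guca2b fall on both sides of 0.

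Cftr (ENSMUSG00000041301, chromosome 6, 18170687 to 18322768, plus strand, GRCm38) encodes the chloride and bicarbonate channel of the luminal membrane. In WT it stood at 189.8 and 196 CPM, and in Vil-CREPTKO at 222 and 242 CPM. Both Vil-CREPTKO libraries lay above both WT libraries, by little. The fitted change was 0.27 on the log2 scale (SE 0.14, interval -0.051 to 0.585, adjusted p 0.444 by edgeR), and it stayed between 0.18 and 0.33 over the 12 alternatives. An antisense gene, Gm15592, shares 129 bp of exon with Cftr but had only 19 to 36 counts, against 9627 to 11905 for Cftr.

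Slc12a2 (ENSMUSG00000024597, chromosome 18, 57878678 to 57946821, plus strand) encodes NKCC1, the cotransporter that loads chloride into the cell from the blood side. WT had 395 and 368 CPM, whereas Vil-CREPTKO had 267 CPM in replicate 1 and 408 CPM in replicate 2. The Vil-CREPTKO libraries thus lay on both sides of WT. Its fitted change of -0.18 on the log2 scale (SE 0.21, adjusted p 0.781 by edgeR) became 0.094 without Vil-CREPTKO replicate 1 and -0.51 without replicate 2. Summed per kb, Cftr and Slc12a2 together were at 90.6 and 87.4 in WT against 76.0 and 101.0 in Vil-CREPTKO, with the groups overlapping.

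Among the potassium channels of the blood side, Kcne3 gave the lowest p of all members. Kcne3 (ENSMUSG00000035165, chromosome 7, 100176502 to 100184869, plus strand) encodes a small subunit that holds the KCNQ1 channel open at rest. It was at 122 and 107 CPM in WT and at 73.2 and 88.5 CPM in Vil-CREPTKO. Each Vil-CREPTKO library was below each WT library, at 70.5% of the WT mean. On the log2 scale the change was -0.50 (SE 0.14, interval -0.82 to -0.19), with an unadjusted p of 0.0061 and an adjusted p of 0.117 by edgeR. It was negative in all 12 alternatives, from -0.64 without Vil-CREPTKO replicate 2 to -0.38 without Vil-CREPTKO replicate 1, the library that stood apart. With every library kept, adjusted p-values by edgeR or DESeq2 ran from 0.027 to 0.160. Among these, only the fit without the filter on low counts passed 0.05.

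Kcnq1 (ENSMUSG00000009545, chromosome 7, 143106362 to 143427042, plus strand) encodes the pore that Kcne3 joins. WT had 119 and 118 CPM, while Vil-CREPTKO had 77.7 CPM in replicate 1 and 112 CPM in replicate 2. Both Vil-CREPTKO libraries were below WT, replicate 2 narrowly. The fitted change was -0.32 on the log2 scale (SE 0.17, interval -0.71 to 0.074, adjusted p 0.463 by edgeR), or -0.082 without Vil-CREPTKO replicate 1 and -0.61 without replicate 2. Per kb, Kcne3 RNA exceeded Kcnq1 RNA 2.34 and 2.08 times in WT against 2.16 and 1.81 times in Vil-CREPTKO, an overlap between the groups.

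Antisense genes cross both loci, and without a stated strand setting reads of partners cannot be told apart. Kcnq1ot1 shares 121 bp of exon with Kcnq1 and had 125 to 303 counts, against 3375 to 6084 for Kcnq1. Gm34821 overlaps Kcne3, with 9 bp of shared exon. Gm34821 had 43 and 38 counts in WT against 3 and 12 in Vil-CREPTKO, few beside the 3181 to 6229 of Kcne3. Its fitted change was -2.32 on the log2 scale (SE 0.68, adjusted p 0.14 by edgeR). It was named after its values were seen.

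Kcnn4 (ENSMUSG00000054342, chromosome 7, 24370263 to 24386690, plus strand) encodes the calcium-activated potassium channel that serves secretion driven by acetylcholine. It was at 72.8 and 58.3 CPM in WT and at 48.9 and 68.2 CPM in Vil-CREPTKO, so the groups overlapped (-0.16 on the log2 scale, SE 0.18, adjusted p 0.755 by edgeR). The sign turned in 3 of the 12 alternatives, without Vil-CREPTKO replicate 1 (0.054), without WT replicate 1 (0.0051) and after the GC and length correction (0.0063). Lymphocytes carry this channel too. The 8 leukocyte markers, of which 8 were tested and 0 passed, summed to 255 and 180 CPM in WT and to 186 and 147 CPM in Vil-CREPTKO. Their part in the level of Kcnn4 was not tested. The 3 potassium channel genes together, per kb, were at 168 and 149 in WT and at 106 and 138 in Vil-CREPTKO.

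Aqp1 (ENSMUSG00000004655, chromosome 6, 55336432 to 55348555, plus strand) encodes a water channel. It was at 257 and 217 CPM in WT and at 229.5 and 240.2 CPM in Vil-CREPTKO, with the Vil-CREPTKO libraries lying between those of WT. The fitted change was -0.014 on the log2 scale (SE 0.15, interval -0.36 to 0.33, adjusted p 0.984 by edgeR), and its sign turned in 6 of the 12 alternatives. Endothelial cells and red cells also make this channel. Endothelial markers summed to between 2.53 and 3.90 CPM over 6 genes, with Emcn at 0 counts in every library, and 6 red cell genes summed to 28.4 and 12.4 CPM in WT and 66.5 and 16.8 CPM in Vil-CREPTKO. Their part in the level of Aqp1 was not tested.

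Of the exchangers that take up salt, Slc26a3 gave the lowest p. Slc26a3 (ENSMUSG00000001225, chromosome 12, 31390871 to 31473917, plus strand) encodes DRA, which exchanges luminal chloride for bicarbonate. It was at 156 and 150 CPM in WT and at 215 and 186 CPM in Vil-CREPTKO. Both Vil-CREPTKO libraries were above both WT libraries, with a mean at 131% of WT. On the log2 scale the difference was 0.39 (SE 0.14, interval 0.067 to 0.71), with an unadjusted p of 0.0233 and an adjusted p of 0.238 by edgeR, and it was positive in all 12 alternatives (0.28 to 0.49, adjusted p 0.134 to 0.592). Vil-CREPTKO replicate 1, the library richest in villus enterocyte markers, had the highest value. Without it the log2 fold change was 0.28, and without Vil-CREPTKO replicate 2 it was 0.49. The part of villus enterocytes in the level of Slc26a3 was not tested. The ratio of Slc26a3 to Cftr per kb was 1.78 and 1.66 in WT against 2.10 and 1.66 in Vil-CREPTKO, so the balance of this exchanger against the channel did not part the groups.

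Slc9a3 (ENSMUSG00000036123, chromosome 13, 74121457 to 74169442, plus strand) encodes NHE3, the main sodium and proton exchanger of the brush border. WT had 163 CPM in replicate 1 and 276 CPM in replicate 2, and Vil-CREPTKO had 206 and 179.7 CPM. The female library was highest, and the Vil-CREPTKO libraries lay between those of WT. Its fitted change of -0.19 on the log2 scale (SE 0.23, adjusted p 0.786 by edgeR) became 0.24 without WT replicate 2, when all libraries left were from males, and -0.52 without WT replicate 1. Per kb, Slc9a3 was 1.22 and 2.16 times Slc26a3 in WT against 1.12 and 1.13 times in Vil-CREPTKO, without overlap between the groups (exact permutation p = 0.333, two-sided, the smallest that 2 against 2 allows).

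Slc26a6 (ENSMUSG00000023259, chromosome 9, 108853283 to 108913049, plus strand), the gene of another chloride and bicarbonate exchanger, had few reads. There were 103 and 80 counts in WT against 76 and 38 in Vil-CREPTKO. The overlap of the groups was narrow, and the interval of the log2 fold change was the widest of the members (-0.54, SE 0.45, interval -1.56 to 0.49, adjusted p 0.668 by edgeR). It moved to -0.054 without Vil-CREPTKO replicate 2 and to -1.24 without replicate 1. The interval thus holds a 2-fold lower level as well as no change.

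Guca2b (ENSMUSG00000032978, chromosome 4, 119656607 to 119658954, minus strand) encodes the precursor of uroguanylin. WT had 629.8 and 605 CPM, and Vil-CREPTKO had 1180.0 CPM in replicate 1 but 519 CPM in replicate 2. One Vil-CREPTKO library was thus far above WT and the other below it. Its fitted change of 0.46 on the log2 scale (SE 0.33, interval -0.29 to 1.21, adjusted p 0.61 by edgeR) turned to -0.25 without Vil-CREPTKO replicate 1 and passed the threshold without replicate 2 (0.94, adjusted p 0.0481 by edgeR). The library high in Guca2b was the one highest in the 12 villus enterocyte markers, of which 0 passed the test. Their part in the Guca2b value was not tested.

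The other genes of the route were read next, from a list of 66 genes in 6 roles, of which 57 had enough counts to be tested. Of these, 1 passed, Guca2a, which was lower, or 1.75% against the 2.71% of all genes tested, and 27 were lower and 30 higher at a median log2 fold change of 0.049. An unadjusted p under 0.05 was reached by 10 of the 57, or 17.5%, against 14.3% of all genes.

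Guca2a (ENSMUSG00000023247, chromosome 4, 119637704 to 119639471, plus strand) encodes the precursor of guanylin, the sister peptide of uroguanylin, and lies 17.1 kb from Guca2b with both genes pointing towards each other. It was at 154 and 125 CPM in WT and fell to 83.9 and 72.0 CPM in Vil-CREPTKO. Both Vil-CREPTKO libraries lay well below WT, at 55.9% of the WT mean. On the log2 scale the fall was fitted as -0.84 (SE 0.15, interval -1.18 to -0.50), with an adjusted p of 0.0236 by edgeR. It passed 0.05 in 11 of the 12 alternatives, and not without WT replicate 1 (-0.69, adjusted p 0.057). Guanylin is made largely by goblet cells and other secretory cells of the small intestine. The 5 goblet cell markers, of which 0 passed, summed to 6643 and 7212 CPM in WT and to 5296 and 5665 CPM in Vil-CREPTKO, and the 5 tuft cell markers, of which 3 passed and were lower, summed to 195 and 233 CPM in WT and to 117 and 110 CPM in Vil-CREPTKO. Of the goblet cell markers, 4 were fitted lower and 1 higher. The 4 Paneth cell markers, of which 0 passed, summed to 5681 and 7008 CPM in WT and to 5125 and 7408 CPM in Vil-CREPTKO. For the 5 enteroendocrine markers, of which 0 passed, the sums were 314 and 300 CPM in WT and 355 and 441 CPM in Vil-CREPTKO. The part of these cell types in the fall of Guca2a was not tested.

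As counts within a library, Guca2b exceeded Guca2a 4.09 and 4.83 times in WT, 14.1 times in Vil-CREPTKO replicate 1 and 7.20 times in replicate 2. This ratio, which needs no scaling between libraries, was higher in both Vil-CREPTKO libraries. An exact permutation test over the 4 libraries gave p = 0.333, two-sided, the smallest that 2 against 2 allows. The ratio was chosen after its values were seen, as were 3 further ratios between members. The receptor of both peptides, Gucy2c, was at 300.4 and 330 CPM in WT and at 394 and 350 CPM in Vil-CREPTKO (0.24 on the log2 scale, SE 0.16, adjusted p 0.563 by edgeR).

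**Figure D3:**
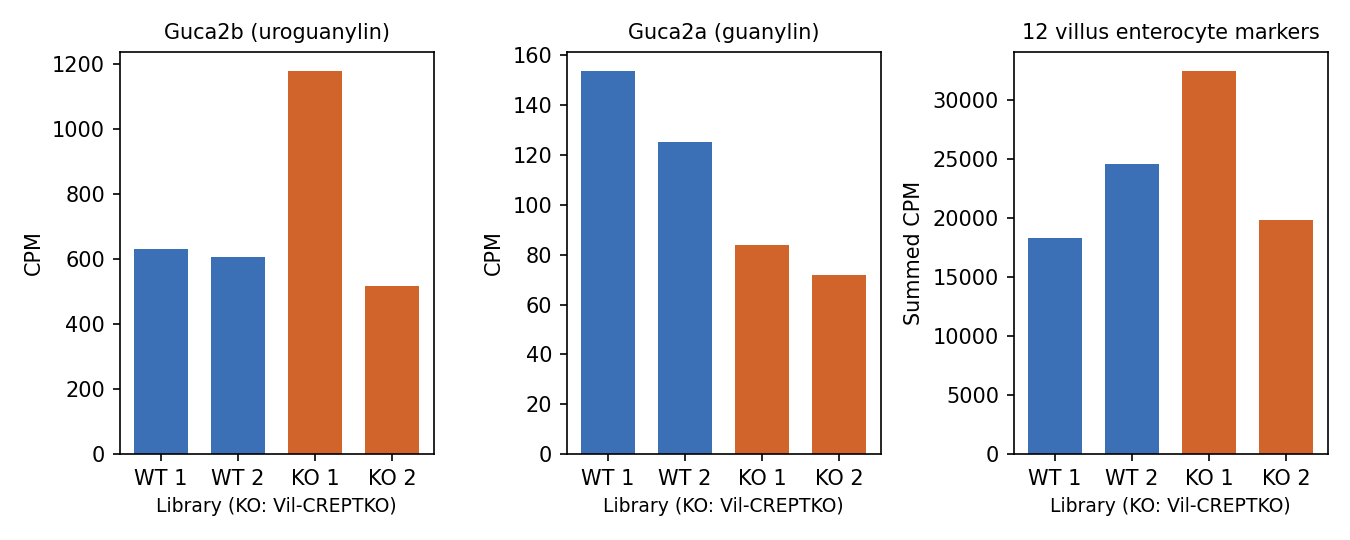
CPM of Guca2b (left) and Guca2a (middle) and the summed CPM of 12 villus enterocyte markers (right) in each library, blue for WT and orange for Vil-CREPTKO (KO). Each bar is 1 library, and axes start at 0. Guca2a is below 84 CPM in both Vil-CREPTKO libraries, while Guca2b and the villus markers are highest in Vil-CREPTKO replicate 1.

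The sequences ahead of RefSeq start sites of these hormone genes and of Slc26a3 are shown. The hormone genes are neighbours whose ratio was higher in both Vil-CREPTKO libraries, although Guca2b itself lay on both sides of WT. Slc26a3 is the exchanger with the lowest p. Each is the 250 bases before the RefSeq start site on GRCm38.p6, 5′ to 3′ on the gene's strand, at chr4:119637482-119637731 (plus) for Guca2a, chr4:119658946-119659195 (minus) for Guca2b and chr12:31437969-31438218 (plus) for Slc26a3. The Guca2a and Guca2b windows each reach past the start of the gene span given above, to 119637731 and 119658946. The Slc26a3 window lies wholly inside the gene span given above (31390871 to 31473917). Its RefSeq start site is thus not the start of that span. Capitals mark exact matches, on either strand, to the letters of a motif of gut epithelial factors, as named after the sequences.
Guca2a: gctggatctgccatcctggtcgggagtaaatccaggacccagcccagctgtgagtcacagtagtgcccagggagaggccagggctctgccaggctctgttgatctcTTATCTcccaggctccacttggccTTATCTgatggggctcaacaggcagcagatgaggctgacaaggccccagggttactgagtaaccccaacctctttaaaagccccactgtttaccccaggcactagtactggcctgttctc
Guca2b: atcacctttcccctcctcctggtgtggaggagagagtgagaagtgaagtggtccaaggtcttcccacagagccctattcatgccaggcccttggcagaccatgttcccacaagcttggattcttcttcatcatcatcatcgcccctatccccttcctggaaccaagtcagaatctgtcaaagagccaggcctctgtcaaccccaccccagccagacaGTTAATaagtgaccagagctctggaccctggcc
Slc26a3: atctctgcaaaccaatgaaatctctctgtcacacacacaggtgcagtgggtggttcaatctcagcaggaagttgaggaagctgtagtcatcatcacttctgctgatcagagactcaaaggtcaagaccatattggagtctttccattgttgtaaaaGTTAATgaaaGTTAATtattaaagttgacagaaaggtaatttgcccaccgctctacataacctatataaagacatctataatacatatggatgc

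The GATA motif was searched as AGATAA, and Guca2a held 2 matches, which begin 144 and 120 bases before the start, whereas 9.99% of all 32851 windows of the same length in the table held a match. The core of the HNF1 site was searched as GTTAAT, and Guca2b held 1 match at 33 bases and Slc26a3 2 matches at 94 and 84 bases, against 6.43% of all windows with a match. The CDX motif, searched as TTTATG, was in 10.8% of all windows and in none of these 3. The TCF/LEF motif, searched as ATCAAAG, was in 3.21% of all windows and likewise in none of the 3. Windows of 8 of the 10 members were searched. Slc12a2 was left out of the search, and no window was available for Kcnq1. Aqp1, Cftr, Kcne3, Kcnn4, Slc26a6 and Slc9a3 held none of the 4 motifs. A match says only that these letters are in the window.

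Among the further chloride and bicarbonate genes, 13 of 15 were tested and 0 passed, with 11 above 0 and a median log2 fold change of 0.20. Ano1, the calcium-activated chloride channel gene, had 100 and 100 counts in WT against 118 and 182 in Vil-CREPTKO (0.69, SE 0.303, adjusted p 0.353 by edgeR). Slc4a7, a sodium bicarbonate cotransporter gene, was at 219 and 280 CPM in WT and at 474 and 318 CPM in Vil-CREPTKO (0.66, SE 0.22, adjusted p 0.193 by edgeR). It was highest in Vil-CREPTKO replicate 1, and its log2 fold change was 0.34 without that library (adjusted p 0.598) and 0.93 without Vil-CREPTKO replicate 2 (adjusted p 0.031). It passed in 3 of the 12 alternatives. Car2, a carbonic anhydrase gene, was at 48.0 and 76.7 CPM in WT and at 58.1 and 49.8 CPM in Vil-CREPTKO, an overlap of the groups.

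Of the further potassium channel and sodium pump genes, 7 of 11 were tested and 0 passed. Kcnj16, an inward rectifier gene, had 70 and 99 counts in WT against 51 and 31 in Vil-CREPTKO (-0.91, SE 0.45, adjusted p 0.415 by edgeR), and Kcnma1, the large-conductance calcium-activated channel gene, had 98 and 91 counts in WT against 49 and 68 in Vil-CREPTKO (-0.58, SE 0.35, adjusted p 0.525 by edgeR). Kcne1 had 0 counts in all libraries, which allows at most 3 counts, or 0.0588 to 0.069 CPM, in each.

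Sodium entry genes gave 5 tested of 7, with 0 passing. Slc9a8, another sodium and proton exchanger gene, was at 53.0 and 53.7 CPM in WT and at 41.3 and 45.5 CPM in Vil-CREPTKO (-0.298 on the log2 scale, SE 0.12, adjusted p 0.292 by edgeR). Slc5a1, the sodium and glucose cotransporter gene, was at 2400.1 and 3133 CPM in WT and at 3845 and 2578 CPM in Vil-CREPTKO, with overlap. Of the other water channels all 6 were tested and 0 passed. Aqp5 had 0 counts in both WT libraries and 12 and 15 in Vil-CREPTKO (adjusted p 0.0602 by edgeR). Its Vil-CREPTKO mean was 4.86 times a floor of 3 counts per WT library. That value leaves out the counting error of the Vil-CREPTKO counts. Aqp8 had 42 and 32 counts in WT against 30 and 77 in Vil-CREPTKO, with overlap.

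Of 17 genes for receptors and second messengers, 16 were tested, and Guca2a was the 1 that passed. Trpv6, an epithelial calcium channel gene placed in this list, was at 3.23 and 5.73 CPM in WT and at 9.34 and 16.5 CPM in Vil-CREPTKO (1.53 on the log2 scale, SE 0.34, adjusted p 0.0544 by edgeR). It passed in 8 of the 12 alternatives, and its log2 fold change ranged from 1.07 to 2.00. Adora2b, the adenosine receptor that raises cAMP in crypts, was at 6.64 and 13.9 CPM in WT and at 5.91 and 3.18 CPM in Vil-CREPTKO (-1.18, SE 0.39, adjusted p 0.186 by edgeR). It passed in 5 of the 12 alternatives, and its log2 fold change ranged from -1.70 without Vil-CREPTKO replicate 1 (adjusted p 0.0384) to -0.55 without WT replicate 2, the female library, where it was highest (adjusted p 0.638). In the list of 10 scaffold and kinase genes, all 10 were tested and 0 passed. Ezr, which encodes the membrane linker ezrin, was at 636 and 846 CPM in WT and at 1295 and 907 CPM in Vil-CREPTKO (0.57, SE 0.24, adjusted p 0.322 by edgeR), and Slc9a3r2, a scaffold gene of the NHERF family, was fitted at -0.51 (SE 0.32, adjusted p 0.543 by edgeR). Slc9a3r1, the scaffold NHERF1 that binds both CFTR and NHE3, was at 689 and 924 CPM in WT and at 1127 and 729.8 CPM in Vil-CREPTKO, with overlap.

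**Figure D4:**
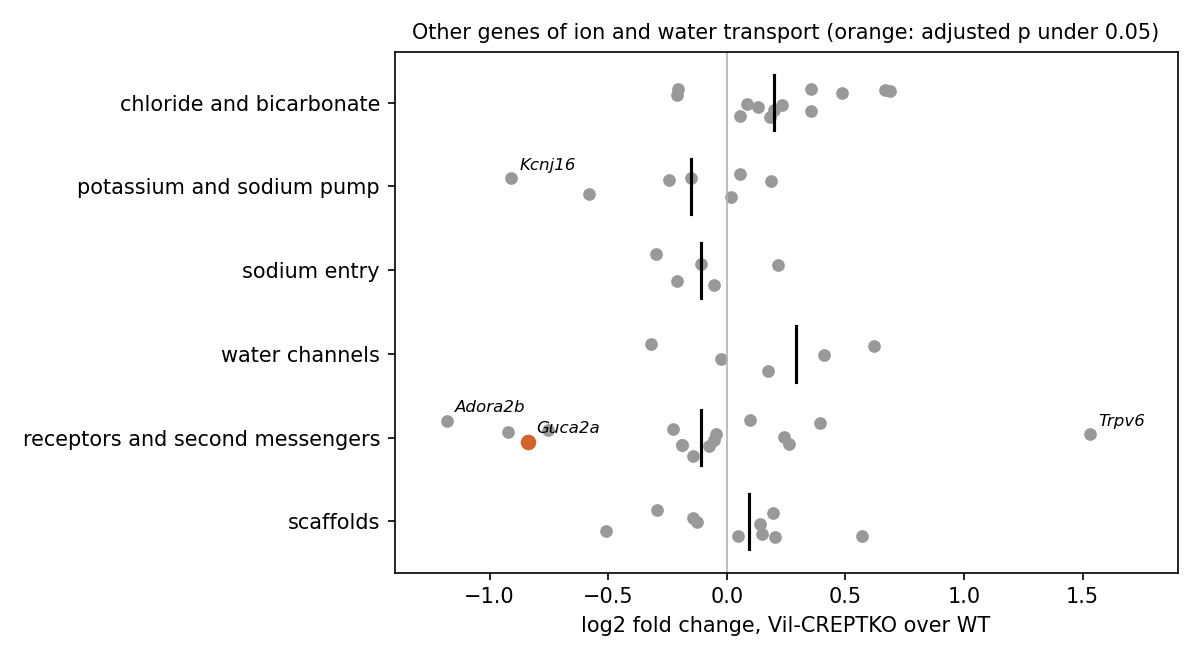
Log2 fold change of Vil-CREPTKO over WT (x axis) for the other tested genes of ion and water transport in 6 roles, with 1 point per gene, a vertical bar for the median of the role, and orange for an adjusted p under 0.05. Aqp5, at 0 counts in WT, is left out of the points but counted in the median. Guca2a is the 1 orange point, at -0.84, and Trpv6 lies farthest to the right at 1.53.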

How the data were processed

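RNA of crypts from 2 WT and 2 Vil-CREPTKO samples was measured by RNA-seq. The authors deposited whole-number read counts per Ensembl gene, 1 column per library. Per the submitters' processing notes and the study's methods, Bowtie2, RSEM, CASAVA 1.8 and GRCm38.p6 were used; the counting annotation and strand setting are not given in the sources used here, and the instrument is named differently in the methods and the labels. Of 53845 rows, 53360 matched GENCODE M21, which gave symbols, positions and lengths, and 380 were unnamed loci. Replicates differed by a chi-square of 49.8 (WT) and 70.1 (Vil-CREPTKO) per gene, far from repeats of 1 library.

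Counts were filtered by filterByExpr (17504 genes), scaled by TMM and fitted in edgeR 4.0.16 (R 4.3.3) with a quasi-likelihood model of the group, two-sided, adjusted by Benjamini-Hochberg over all genes. CPM values use TMM-scaled library sizes. SE is the log2 fold change over the square root of F. Depth was 47241049 to 49369315 counts, so for genes with many counts the spread between libraries (biological coefficient of variation 0.188) set the precision. For genes with few counts, counting error added to it. Limits from counts of 0 cover counting error only. Alternatives were DESeq2 1.42.0, other scalings and filters, a replicate term, a GC and length correction (loess, span 0.5) and each library left out. Both fits and the correction were tested on simulated data. The members and lists were chosen with earlier results of these data known. All members were named; of the other lists, genes that passed, the 2 largest changes per list and a few fixed genes of the route (Gucy2c, Guca2a, Slc9a3r1 and Car2; a further fixed gene is not reported here).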

Additional observations from a re-analysis of the deposited data

How the results depend on the processing

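The number of the 10 members with an adjusted p under 0.05 was 0 except without the filter on low counts, where it was 1 (Kcne3), and with a library left out, where it ran from 0 to 2 (Kcne3 and Guca2b, without Vil-CREPTKO replicate 2). Of the other transport genes, 1 passed in the reported fit, 5 with DESeq2 (Slc26a2, Slc4a7, Guca2a, Adora2b and Trpv6), 4 with library-size scaling, 6 without the filter, 2 with at least 10 counts in every library, 2 after the GC and length correction and 1 to 4 with a library left out. With the replicate number as a block, 2 passed (Guca2a and Trpv6) and 558 of all genes, against 474. Over all genes, 806 passed with DESeq2 and 1233 without the filter. The block changed no member's call. The deviations of same-numbered libraries correlated at 0.028. These deviations also carry the sex of WT replicate 2 and the differing make-up of Vil-CREPTKO replicate 1. The value therefore cannot decide whether same-numbered libraries were paired. Signs turned for Aqp1 with DESeq2 (0.0023), RLE (0.0039) and upper-quartile scaling (0.016) and after the GC and length correction (0.11), and for Kcnn4 after that correction (0.0063). With a library left out, the log2 fold change ran from -0.51 to 0.094 for Slc12a2, from -0.42 to 0.054 for Kcnn4, from -0.13 to 0.11 for Aqp1, from -0.52 to 0.24 for Slc9a3 and from -0.25 to 0.94 for Guca2b. The cause was not tested. Cftr, Kcnq1, Kcne3, Slc26a3 and Slc26a6 kept their sign in the 12 alternatives. Slc26a6 (38 to 103 counts), Kcnj16 (31 to 99) and Aqp5 (0 to 15) rest on few counts.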
